A study of Mus musculus with 39 samples.

Results

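Sox17 and Sox7 encode SOX transcription factors of the same subgroup and were followed here across 4 histone marks and 3 sorted populations of naive extra-embryonic endoderm (nEnd) cultures. The members were taken as every listed peak that touched the body of either gene or the 50 kb on each side, on the GRCm38 assembly. There were 95 such peaks of 432096 in all 36 lists, 48 at Sox17 and 47 at Sox7. Both genes belong to the 21911 protein-coding genes whose windows were measured in the same way.

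SOX proteins bind DNA through an HMG box. Sox17 and Sox7, which form the SOXF group with Sox18, are both used as markers of the primitive endoderm, the extra-embryonic lineage that nEnd cultures model, while Sox2 of the SOXB group belongs to the pluripotent epiblast. The marks read different chromatin states. H3K27me3 is the product of Polycomb repressive complex 2 and lies over silent developmental genes, H3K27ac lies at active promoters and enhancers, H3K4me1 lies at enhancers whether active or primed, and H3K9me3 marks heterochromatin.

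All cells carried the OCT4-mCherry reporter, were labelled as nEnd and as receiving no treatment, and came from this 1 line, so no second line or genotype was compared. CUT&Tag, in which an antibody brings a transposase to the DNA around a mark, was run on cells sorted by OCT4-mCherry and PDGFRA-APC as Oct4+, DP (positive for both) and Pdgfra+, with 3 replicates of each population for each mark. The study describes its replicates as biological, while the labels do not say whether they were separate cultures. The p-values below concern the spread between these libraries, except where stated. Each library is a population, so a mark in fewer cells and less of it per cell cannot be told apart.

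The lists held 1074 to 65131 peaks, and the read depth behind them is unknown. Their lengths moved with the populations: the H3K27ac lists of Oct4+ replicates 1 and 2 held 38619 and 65131 peaks against 3079 to 12244 in DP and Pdgfra+, and the H3K4me1 lists of Pdgfra+ replicates 1 and 2 held 1723 and 1074. Their part in the results was not tested, and covered lengths are therefore given beside the percentile of the covered share of the window among the 21911 genes of the same library, where genes without a peak share 1 tied rank. The sorted identities were checked at start sites. H3K27ac was listed at Nanog and Sox2 in 3 of 3 Oct4+ libraries and in none of the 6 others, and at Pdgfra in 0 of 3 Oct4+, 2 of 3 DP and 3 of 3 Pdgfra+ libraries. The other markers were less clean. Pou5f1 was acetylated in 3, 1 and 1 and Klf4 in 3, 3 and 3 libraries of Oct4+, DP and Pdgfra+, and Esrrb and Zfp42 in 2 Oct4+ libraries each, with Zfp42 also in 1 DP library. Of the endoderm markers, Gata6 and Col4a1 were acetylated in 2, 3 and 3, Gata4 in 1, 2 and 3, Foxa2 in 1, 3 and 3 and Dab2 in 0, 2 and 0.

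Sox17 lies on the minus strand of chromosome 1 (4490931 to 4497354), and its window of 106.4 kb holds no other protein-coding gene. Its first exon is overlapped from the other strand by the transcript Gm37587, and CUT&Tag cannot assign a peak there to one of them. Sox7 lies on the plus strand of chromosome 14 (63943673 to 63950732), and its window of 107.1 kb also takes in the end of Pinx1, all of 4930578I06Rik and the start of Rp1l1. Distances below run from the annotated start of the gene, downstream or upstream along its strand.

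4 stretches of 300 bases are shown because they carry the distal part of the pattern. They are centred on the median position of strongest signal of the acetylated regions flanking Sox17 and of the regions with H3K4me1 beyond Sox7, are given on the plus strand of GRCm38 from RefSeq, and have in capitals every match on either strand to the letters AGATAA, the core bound by GATA factors, or to the letters AACAAT, a core bound by SOX factors.
Sox17, 23.1 kb downstream, H3K27ac, chr1:4474058-4474357: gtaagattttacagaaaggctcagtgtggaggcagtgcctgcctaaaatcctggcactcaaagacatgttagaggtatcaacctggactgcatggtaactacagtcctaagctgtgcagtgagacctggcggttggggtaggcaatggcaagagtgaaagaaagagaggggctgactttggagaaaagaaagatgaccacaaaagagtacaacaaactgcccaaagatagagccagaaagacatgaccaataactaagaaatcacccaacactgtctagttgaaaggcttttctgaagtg
Sox17, 41.2 kb upstream, H3K27ac, chr1:4538447-4538746: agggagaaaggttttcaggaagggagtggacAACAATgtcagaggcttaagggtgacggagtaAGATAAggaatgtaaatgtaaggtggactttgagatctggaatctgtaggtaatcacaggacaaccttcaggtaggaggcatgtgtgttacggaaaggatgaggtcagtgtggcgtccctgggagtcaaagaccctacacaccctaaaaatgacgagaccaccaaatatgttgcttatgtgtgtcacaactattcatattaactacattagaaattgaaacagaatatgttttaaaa
Sox7, 23.2 kb downstream, H3K4me1, chr14:63966709-63967008: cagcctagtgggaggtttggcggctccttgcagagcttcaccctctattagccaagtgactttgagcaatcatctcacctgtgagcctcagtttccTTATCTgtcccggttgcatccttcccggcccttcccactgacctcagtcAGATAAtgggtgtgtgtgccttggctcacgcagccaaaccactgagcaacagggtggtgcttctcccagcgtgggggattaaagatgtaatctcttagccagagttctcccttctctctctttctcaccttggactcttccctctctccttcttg
Sox7, 32.1 kb downstream, H3K4me1, chr14:63975576-63975875: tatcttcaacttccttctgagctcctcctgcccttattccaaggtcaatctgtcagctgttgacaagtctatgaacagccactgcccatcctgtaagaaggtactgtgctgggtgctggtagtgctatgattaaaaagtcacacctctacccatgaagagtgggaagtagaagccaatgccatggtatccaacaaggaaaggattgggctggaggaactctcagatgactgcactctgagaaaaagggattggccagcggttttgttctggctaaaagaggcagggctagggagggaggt

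The first 2 are intergenic and flank Sox17, the third is intergenic beyond Sox7, and the fourth lies in an intron of 4930578I06Rik. The stretch upstream of Sox17 held 1 AACAAT and 1 AGATAA match, the stretch 23.2 kb beyond Sox7 held 2 AGATAA matches, and the other two held none. In the same 300 bases around all listed H3K27ac peaks, AGATAA was found in 12.2% and AACAAT in 11.6% of windows, and around all H3K4me1 peaks in 21.8% and 15.6%. The H3K27ac and H3K4me1 regions at the members with a peak in at least 2 libraries of a population were all searched. AGATAA occurred in 3 of 9 of their stretches at Sox17 and 2 of 10 at Sox7, and AACAAT in 3 and 1. Stretches of both marks overlapped at the Sox17 coding exon and were counted separately. ATGCAAAT (an octamer) and TTCCNGGAA (a STAT site) occurred in none of these stretches, against 1.23% and 1.01% of all H3K27ac and 1.84% and 1.4% of all H3K4me1 windows. These are matches of letters, and matches could overlap.

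**Figure D1:**
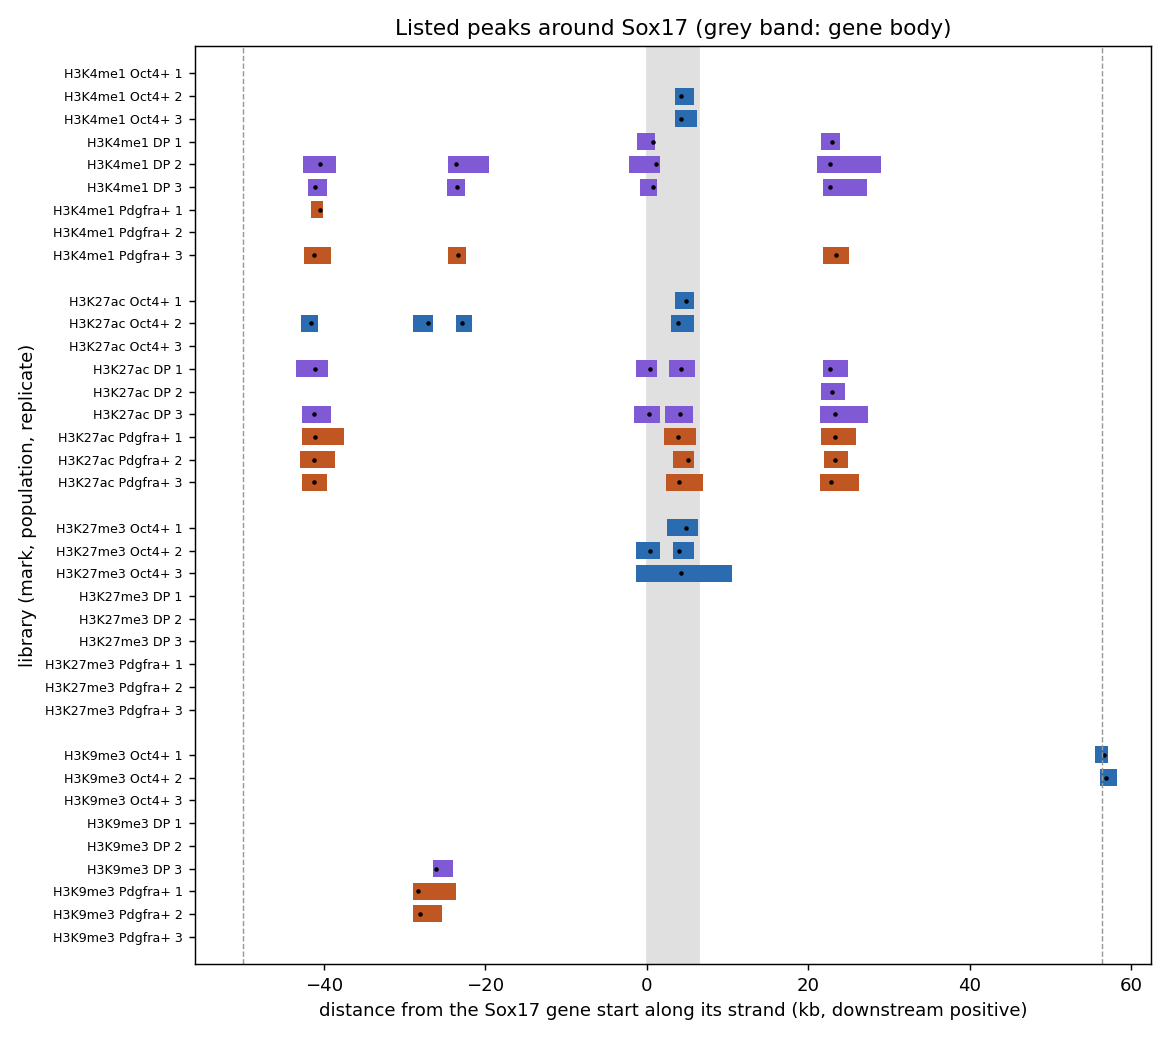
Listed peaks around Sox17 in the 36 libraries, against the distance from the gene start in kb, with 1 row per library. Bars are peaks coloured by population (blue Oct4+, purple DP, orange Pdgfra+), dots mark the strongest signal, the grey band is the gene body and dashed lines bound the window. H3K27me3 is found in the 3 Oct4+ rows and nowhere else, and the H3K27ac bars near 23 kb in the DP and Pdgfra+ rows only.

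H3K27me3 covered the body of Sox17 in every Oct4+ library and was not listed in its window in any DP or Pdgfra+ library. The covered length was 3.76, 5.59 and 11.9 kb in the Oct4+ replicates (mean 7.09 ± 4.29 kb, SD, n = 3) and 0 kb in the 6 others. Sox7 had the same pattern, with 2.86, 3.51 and 11.7 kb in Oct4+ (6.02 ± 4.92 kb) and 0 kb elsewhere. The percentiles among genes were 85.3 to 95.4 for Sox17 and 84.6 to 92.8 for Sox7 in Oct4+, against 24.8 to 44.3, the tied rank of genes without a peak, in the others. The groups did not overlap at either gene, and replicate 3, which had the longest Oct4+ list of this mark at 5785 peaks, gave the widest domain at both.

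At Sox17 the domain of replicate 3 was 1 peak of 11930 bases, from 1.3 kb upstream of the start to 10.6 kb downstream, thus beyond the end of the gene. In replicate 2 it was split into a peak over the gene body and one over the start, and in replicate 1 only the body was listed. At Sox7 the 3 peaks had their strongest signal within 118 bases of each other, at a median of 0.4 kb into the gene, in an intron, and they spanned up to 11687 bases. The Sox17 peak of replicate 3 ranked 389 of 5785 in its list by total signal, and that of Sox7 ranked 799. The lowest position was 1503 of 2948, for the peak at the Sox17 start in replicate 2. These peaks were therefore not at the bottom of their lists.

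In the exact permutation test of the 3 populations over the 280 divisions of 9 libraries, p was 0.0357 for each gene. The Benjamini-Hochberg adjusted p over 12391 genes with any H3K27me3 was 0.54. Any gene with coverage in 3 of 3 Oct4+ and 0 of 6 other libraries gets this unadjusted p whatever its lengths. It thus reflects that pattern and not the spread of the lengths. The test called 0% of genes at an adjusted p under 0.05 and 7.5% (929 genes) before adjustment. A peak in 3 of 3 Oct4+ and in 0 of 6 other libraries was a pattern chosen after its values were seen. It held in the windows of 63 genes, 0.288% of all, and in 61 of 10684 merged H3K27me3 regions, 0.571%. The DP lists of this mark held 3798 to 8672 peaks, each more than the lists of Oct4+ replicates 1 and 2. The Pdgfra+ lists held 1143, 2841 and 6151 peaks, those of replicates 1 and 2 being shorter than that of Oct4+ replicate 2. DP replicate 1 listed no peak with a total signal below 52608, while Oct4+ totals started from 18075 at Sox17 and 16892 at Sox7. The part of these limits in the absence of peaks was not tested. When the highest 1143 peaks were taken from each list, H3K27me3 remained listed at Sox17 in 3 and at Sox7 in 2 Oct4+ libraries, and in none of the other populations.

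Mean H3K27ac coverage at Sox17 was 12 kb in Pdgfra+, 10.7 kb in DP and 3.92 kb in Oct4+, with a wide spread in DP and Oct4+. The Pdgfra+ libraries covered 13.6, 9.94 and 12.5 kb, the DP libraries 13.1, 2.9 and 16.2 kb, and the Oct4+ libraries 2.42, 9.33 and 0 kb. Every Pdgfra+ library was above every Oct4+ library, by 8.11 kb in the mean, while DP overlapped both. DP replicate 2, the lowest of its group, had the shortest H3K27ac list of all with 3079 peaks, and Oct4+ replicate 2 the longest.

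Among the genes of the same library, Sox17 stood at percentiles 27.8, 43.4 and 24.6 in Oct4+. It stood at 88.2, 81.2 and 89.1 in DP and at 95.5, 95.1 and 94.1 in Pdgfra+. On this scale the 3 populations did not overlap. The exact permutation test gave p = 0.189 (adjusted p = 0.484 over 20013 genes) on covered length and p = 0.00357, the smallest the design allows, on percentiles (adjusted p = 0.146), so neither passed after adjustment. The percentile measure was added after the data were seen. For the other pairs of gene and mark the exact permutation test on percentiles gave p from 0.00714 to 0.529. None of them passed after adjustment. The test on covered length called 0% of genes at an adjusted p under 0.05 and 10% (2001 genes) before adjustment, and the exact permutation test on percentiles 0% and 17.1% (3430 genes). A covered share that was higher in every Pdgfra+ than in every Oct4+ library was found at 73 genes, 0.333% of all. The Pdgfra+ minus Oct4+ difference of 7.62 percentage points of the window was exceeded by 56 genes.

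The acetylation at Sox17 was made of separate regions. The region around 23.1 kb downstream, intergenic and 5962 bases wide when merged, was listed in 3 of 3 DP, 3 of 3 Pdgfra+ and 0 of 3 Oct4+ libraries. It was the only peak at Sox17 in DP replicate 2. Of 78963 merged H3K27ac regions, 86 had this pattern, 0.109%, and the pattern was again chosen after its values were seen. A region over the coding exon, 4.1 kb downstream, was shared by all populations, in 2 Oct4+, 2 DP and 3 Pdgfra+ libraries. Its total signal, which is not corrected for depth, was 7960 and 9021 in Oct4+ and 14595 to 44254 in DP and Pdgfra+. These totals cannot be compared directly, since no DP or Pdgfra+ list held a peak with a total below 8736. As a multiple of the lowest total in its list, the region stood at 1.32 and 1.65 in Oct4+. It stood at 2.21 and 2.23 in DP and at 1.35 to 1.67 in Pdgfra+. Another region, 41.2 kb upstream, was found in 1, 2 and 3 libraries in the same order. The gene start itself, with strongest signal 0.4 kb downstream, was listed in 2 DP libraries and in no other.

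In Oct4+ replicates 1 and 2 the acetylated body region lay over the body where H3K27me3 was listed. Of the 11.9 kb covered by H3K27me3 in Oct4+, 2.87 kb (24.1%) was also covered by H3K27ac in Oct4+ libraries. The same bases were covered by H3K27ac over 6.78 kb (56.8%) in DP and 4.93 kb (41.3%) in Pdgfra+ libraries. The 11.9 kb is the peak of replicate 3, and without it the domain was 6.7 kb, of which H3K27ac covered 42.9% in Oct4+, 96% in DP and 56.1% in Pdgfra+ libraries. Whether both marks sat on the same nucleosomes or in different cells of the Oct4+ sort cannot be told apart.

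**Figure D2:**
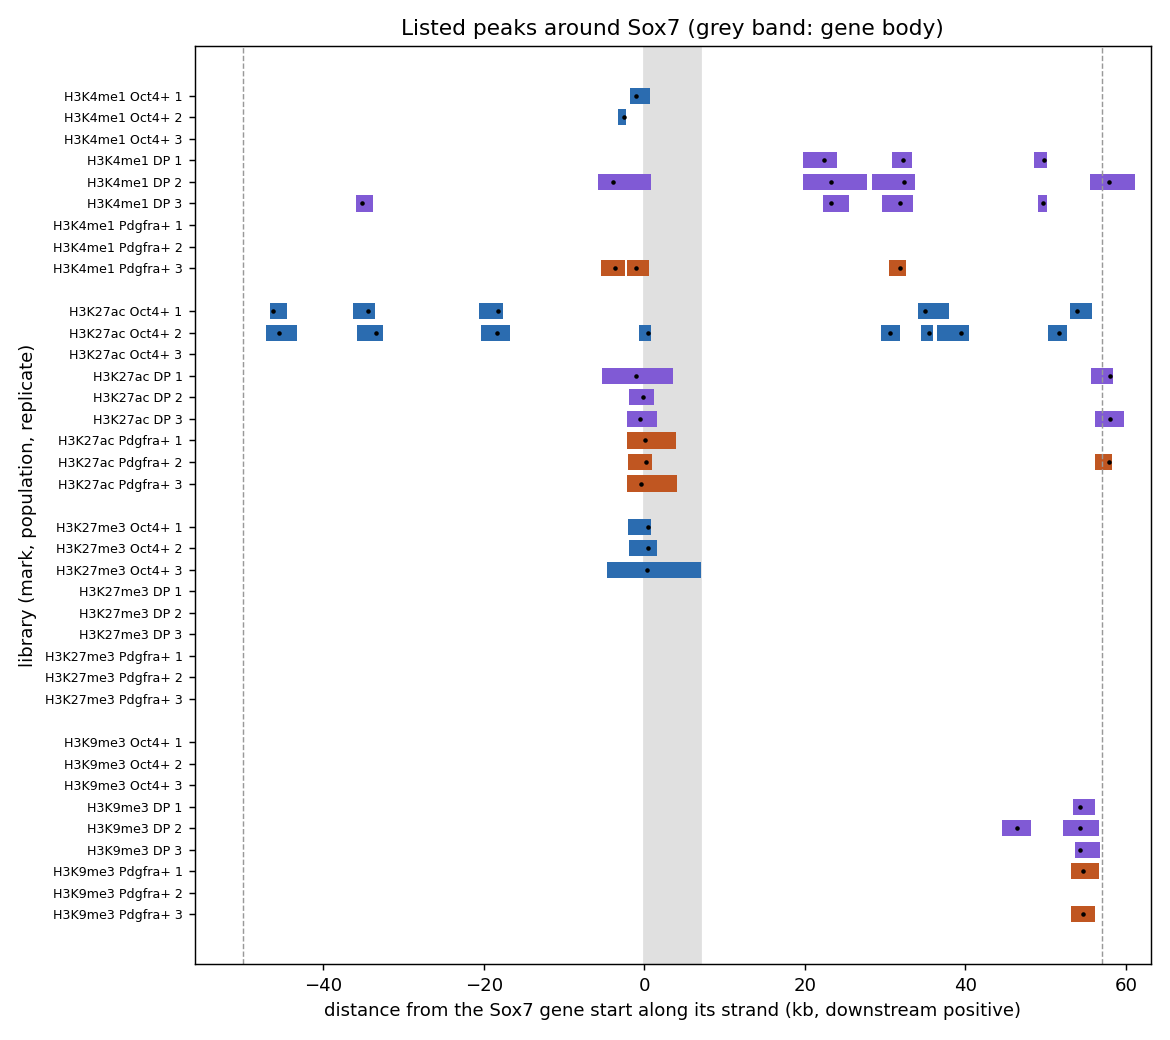
Listed peaks around Sox7 in the 36 libraries, drawn as for Sox17. H3K27me3 is again found in the Oct4+ rows alone, H3K27ac bars cover the gene start in all 6 DP and Pdgfra+ rows, and those of Oct4+ replicates 1 and 2 lie mostly away from it.

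At Sox7 the acetylation stood at the gene start in DP and Pdgfra+ and mostly away from the gene in Oct4+. The region over the start, which ran from 5.3 kb upstream to 4.0 kb downstream, was listed in 3 of 3 DP, 3 of 3 Pdgfra+ and 1 of 3 Oct4+ libraries. In DP replicate 1 it was a peak of 8950 bases that ranked 384 of 10957 in its list. The single Oct4+ peak, in replicate 2, spanned 1589 bases and ranked 31800 of 65131. The strongest signal of the 7 peaks had its median 0.2 kb upstream of the start.

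Over the whole window the order was the reverse. The covered length was 14.4, 22.8 and 0 kb in Oct4+, 10.3, 3.1 and 4.64 kb in DP and 6.05, 4.02 and 6.12 kb in Pdgfra+, and the groups overlapped. The exact permutation test gave p = 0.482 (adjusted p = 0.714). Most Oct4+ peaks, 4 of 5 in replicate 1 and 5 of 8 in replicate 2, lay in Pinx1 introns 45.9 and 34.0 kb upstream, in an intergenic region 18.3 kb upstream and in 4930578I06Rik introns around 35.4 kb downstream, each listed in Oct4+ replicates 1 and 2 and in no other library. Replicate 1 also had a peak 53.9 kb downstream. It was merged into a region also listed in DP and Pdgfra+. Of their peaks it met only the edge of that of DP replicate 1, with strongest signal 58.0 kb downstream. Replicate 2 had peaks 30.6 and 51.6 kb downstream and the one at the start. Within 20 kb of the gene the direction turned, with means of 2.43, 5.27 and 5.07 kb in Oct4+, DP and Pdgfra+, and with equal numbers of peaks per list the means were 0, 4.02 and 5.07 kb. As percentiles among genes Sox7 stood at 80.6, 79.2 and 24.6 in Oct4+, at 82.4, 82.6 and 58.3 in DP and at 82.3, 77.8 and 81.9 in Pdgfra+.

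The H3K27me3 domain of Sox7 in Oct4+ lay over the region acetylated in DP and Pdgfra+. Of 11.7 kb covered by H3K27me3 in Oct4+ libraries, 8.33 kb (71.2%) was covered by H3K27ac in DP and 6.14 kb (52.5%) in Pdgfra+ libraries, against 1.59 kb (13.6%) in Oct4+, all from replicate 2. Single libraries set these shares. Without DP replicate 1, H3K27ac in DP covered 3.76 kb (32.2%) of the domain. Without Oct4+ replicate 3, which alone gave the 11.7 kb, the domain was 3.66 kb, of which H3K27ac covered 100% in DP, 100% in Pdgfra+ and 43.5% in Oct4+ libraries.

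**Figure D3:**
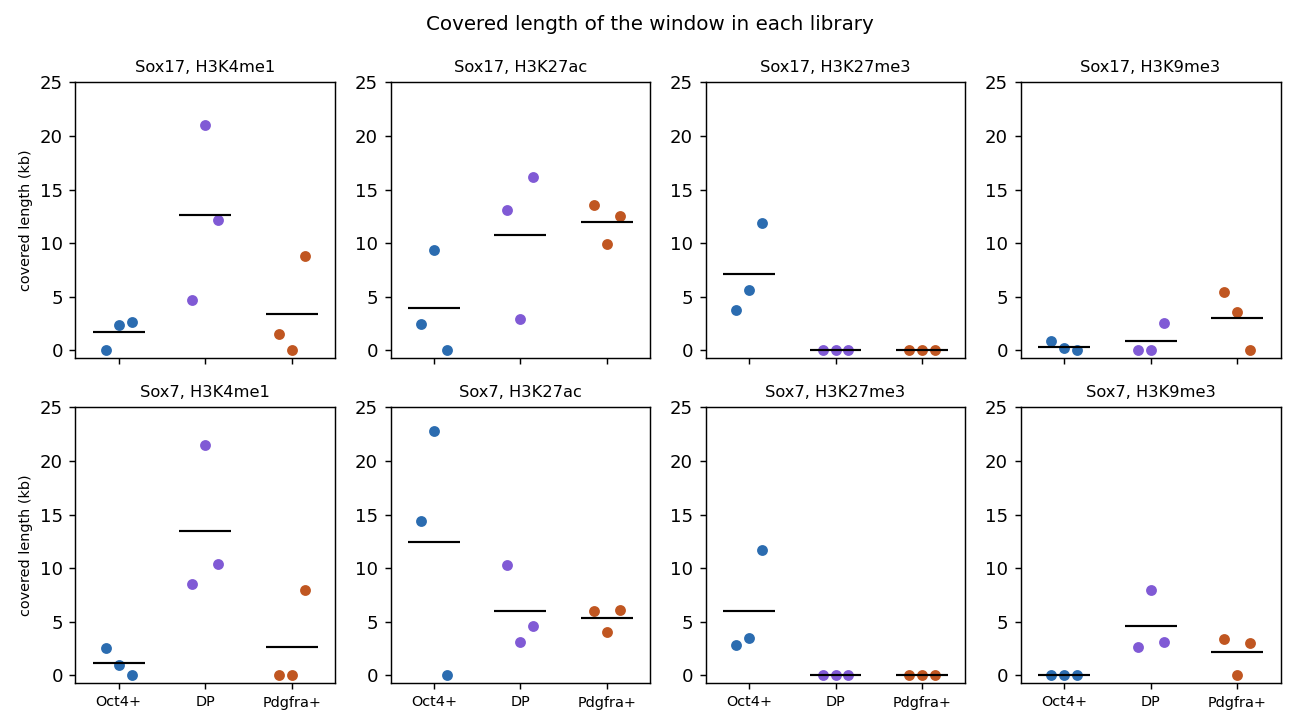
Covered length of the Sox17 window (upper row) and the Sox7 window (lower row) in kb for each mark, with a point per library and a line at the mean of 3. H3K27me3 points are above 0 in Oct4+ alone, and H3K4me1 means are highest in DP at 12.6 and 13.4 kb.

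**Figure D4:**
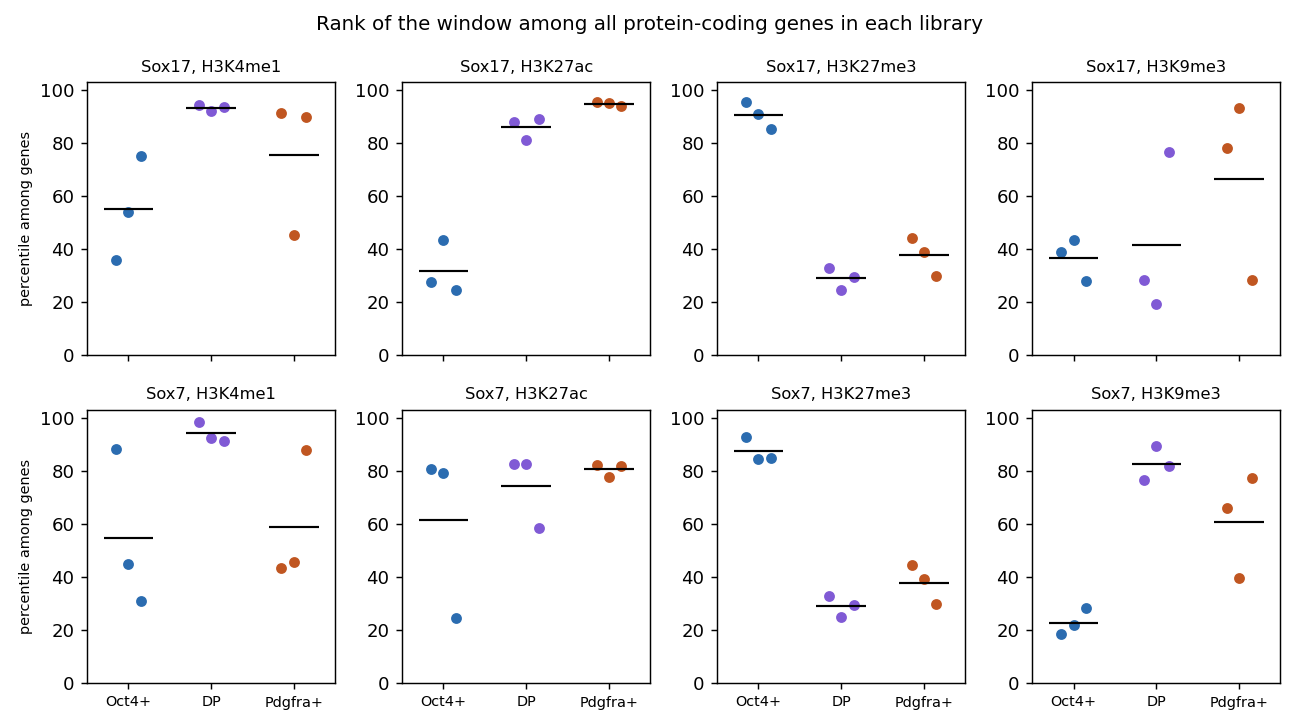
Percentile of the covered share of each window among 21911 protein-coding genes within each library, with a point per library and a line at the mean of 3. For H3K27ac at Sox17 the Oct4+ points lie at 24.6 to 43.4, the DP points at 81.2 to 89.1 and the Pdgfra+ points at 94.1 to 95.5.

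H3K4me1 was widest in DP at both genes. At Sox17 it covered 4.66, 21 and 12.2 kb in DP, 0, 2.37 and 2.67 kb in Oct4+ and 1.5, 0 and 8.79 kb in Pdgfra+. At Sox7 it covered 8.48, 21.5 and 10.4 kb in DP, 2.57, 1 and 0 kb in Oct4+ and 0, 0 and 7.92 kb in Pdgfra+. The DP libraries were above all Oct4+ libraries in covered length at both genes and above all Pdgfra+ libraries at Sox7 but not at Sox17. The DP minus Oct4+ difference was 10.9 kb at Sox17 and 12.2 kb at Sox7 (p = 0.1 for each, exact two-sided permutation test, the smallest that 3 against 3 allows). A DP share above every Oct4+ share was found at 984 genes, 4.49% of all.

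By percentile among genes the populations lay closer. Sox17 stood at 94.4, 92.2 and 93.8 in DP, at 36.1, 54.2 and 75.3 in Oct4+ and at 91.3, 45.5 and 89.9 in Pdgfra+, where replicates 1 and 3 thus came near DP. Sox7 stood at 98.5, 92.5 and 91.4 in DP, at 88.2, 44.9 and 30.8 in Oct4+ and at 43.2, 45.5 and 87.9 in Pdgfra+. The DP libraries still ranked above all others at both genes.

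Over the 3 populations the exact permutation p was 0.0679 for Sox17 and 0.05 for Sox7, with an adjusted p of 0.737 for each over 15517 genes. The test called 0% of genes at an adjusted p under 0.05 and 5.68% (881 genes) before adjustment. The Pdgfra+ coverage came mostly from replicate 3, whose list held 10620 peaks. Without that replicate the Pdgfra+ minus Oct4+ difference turned from 1.75 to -0.93 kb at Sox17 and from 1.45 to -1.19 kb at Sox7. With the highest 1074 peaks of each list, only DP retained coverage, with means of 4.44 and 2.7 kb.

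The regions of H3K4me1 at Sox17 differed between populations in place. In Oct4+ replicates 2 and 3 the mark lay over the coding exon, 4.2 kb downstream, where no DP or Pdgfra+ library had it. In DP it lay at the gene start, 0.8 kb downstream, in 3 of 3 libraries, and 22.8 kb downstream in 3 of 3. The latter is the same intergenic place as the acetylated region and was also marked in Pdgfra+ replicate 3. Further regions 23.5 and 40.8 kb upstream were listed in 2 DP libraries each, with 1 and 2 Pdgfra+ libraries, and in no Oct4+ library.

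At Sox7 the regions with H3K4me1 in 3 of 3 DP libraries lay beyond the gene, 23.2 and 32.1 kb downstream, and neither was listed in Oct4+. Pdgfra+ had only the second, in replicate 3, where it ranked 10524 of 10620. No H3K27ac was listed at the 23.2 kb region in any of the 9 libraries. At the 32.1 kb region it was listed in Oct4+ replicate 2 only, in a peak 30.6 kb downstream. A peak of H3K4me1 in DP replicate 2, 57.9 kb downstream, did overlap H3K27ac of 2 DP libraries. It also overlapped H3K27ac of Pdgfra+ replicate 2 and, at its edge, of Oct4+ replicate 1. At Sox17 the region near 23 kb downstream carried both marks in DP, whereas that 23.5 kb upstream had no H3K27ac in DP. H3K4me1 in 3 of 3 DP and 0 of 3 Oct4+ libraries, a pattern chosen after its values were seen, was found at 1390 of 26496 merged regions, 5.25%. Close to the start of Sox7 the mark was listed in 2 Oct4+, 1 DP and 1 Pdgfra+ libraries, with no order between them.

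H3K9me3 was listed within 1 kb of neither start in any library. At Sox17 it covered 0.825, 0.205 and 0 kb in Oct4+, 0, 0 and 2.5 kb in DP and 5.46, 3.55 and 0 kb in Pdgfra+, the latter over the pseudogene Gm7357, 28.1 kb upstream. At Sox7 it covered 0 kb in the 3 Oct4+ libraries, 2.63, 8.01 and 3.11 kb in DP and 3.43, 0 and 3.01 kb in Pdgfra+. A region 54.3 kb downstream in an intron of Rp1l1, a gene of photoreceptors, was listed in 3 of 3 DP and 2 of 3 Pdgfra+ libraries, and DP replicate 2 had a further intergenic peak of 3594 bases 46.4 kb downstream. The percentiles among genes were 28.1 to 43.7, 19.5 to 76.7 and 28.5 to 93.3 for Sox17 and 18.3 to 28.1, 76.7 to 89.5 and 39.4 to 77.2 for Sox7 in Oct4+, DP and Pdgfra+. DP and Oct4+ did not overlap there, a pattern found at 1707 genes, 7.79% of all. The exact permutation test gave p = 0.286 for Sox17 and p = 0.0714 for Sox7 (adjusted p = 0.689 and 0.422 over 17365 genes). It called 0% of genes at an adjusted p under 0.05 and 13% (2253 genes) before adjustment.

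Within 1 kb of an annotated coding start, H3K27me3 was listed in 3, 0 and 0 libraries of Oct4+, DP and Pdgfra+ at both genes, while H3K27ac differed between them. H3K27ac was listed in 2, 2 and 3 libraries at Sox17 and in 1, 3 and 3 at Sox7. Sox17 has 7 annotated coding starts. Its H3K27ac counts in Oct4+ and Pdgfra+ come from starts inside the gene body, since no such peak lay within 1 kb of the gene start. The same holds for H3K27me3 in Oct4+ replicate 1, where the peak began 2.5 kb downstream of the gene start. H3K27me3 in all Oct4+ libraries alone was found at the starts of 52 genes, 0.237% of all, and 17 of them, 0.0776% of all, also had H3K27ac at the start in 3 Pdgfra+ and at least 2 DP libraries. Both rules were written after the values of the members were seen.

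Of 17 other genes of the endoderm, 6 met both rules, among them the GATA factors Gata4 and Gata6 and the basement membrane genes Col4a1, Col4a2 and Lamb1. Col4a1 and Col4a2 start next to each other and share peaks. At their starts Foxa2, Pdgfra and Fgfr2 had H3K27me3 in 2 Oct4+ libraries and none elsewhere, and H3K27ac in 3 Pdgfra+ libraries. Fgfr2 also had H3K27ac there in 3 of 3 Oct4+ libraries. Over whole windows H3K27me3 was not confined to Oct4+ at these genes. Its mean covered share in Oct4+ and DP was 12.4% and 24.8% at Foxa2, 4.45% and 1.16% at Pdgfra and 1.75% and 5.55% at Fgfr2. H3K27me3 in the window in all Oct4+ and no other libraries held at 3 of the 17, against 0.288% of all genes. H3K27me3 was listed at the start of 12 of the 17 in at least 1 Oct4+ library, against 17.2% of all genes, and of 0 of the 17 in any DP or Pdgfra+ library, where 21.6% of all genes had it. H3K27ac was listed in 3 of 3 Pdgfra+ libraries at 11 of the 17, against 14% of all genes.

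The other 17 SOX genes had the same count in Oct4+, with H3K27me3 at the start of 12 in at least 1 library. In DP it was listed at the start in 3 of 3 libraries at 11 of them, among them Sox1, Sox3, Sox9 and Sox11, against 11.7% of all genes, and 0 of 17 met either rule. Sox18, the third SOXF gene, had H3K27me3 at its start in 9 of 9 libraries and H3K27ac in 2 Oct4+ libraries only. Sox2 had H3K27ac in the 3 Oct4+ libraries and H3K27me3 in 1 DP and 1 Pdgfra+ library. None of the 17 had H3K27ac at the start in all 3 Pdgfra+ libraries.

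Over whole windows, the covered share of H3K27ac was higher in Pdgfra+ than in Oct4+ for 10 of the 17 endoderm genes, for 0 of the 17 SOX genes and for 1033 of all 21911 genes (4.71%), with medians of 1.55, -2.33 and -3.79 percentage points. The highest of the endoderm list were Col4a1 (17.7 points) and Col4a2 (16.3 points), and the lowest were Amn (-10.4 points) and Hnf4a (-8.3 points). Among SOX genes Sox13 (-16.5 points) and Sox15 (-16.3 points) were lowest, and Sox3, Sox9 and Sox14 had no H3K27ac listed in either population and were highest at 0. Sox17 (7.62 points) lay above the median of the endoderm list and Sox7 (-6.56 points) below that of the SOX list. No gene of either list passed an adjusted p of 0.05 for any mark in the exact permutation test. Before adjustment 2 endoderm and 2 SOX genes of 17 each passed for H3K27ac, and 3 and 2 for H3K27me3. Of all genes tested, 10% passed for H3K27ac and 7.5% for H3K27me3.

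**Figure D5:**
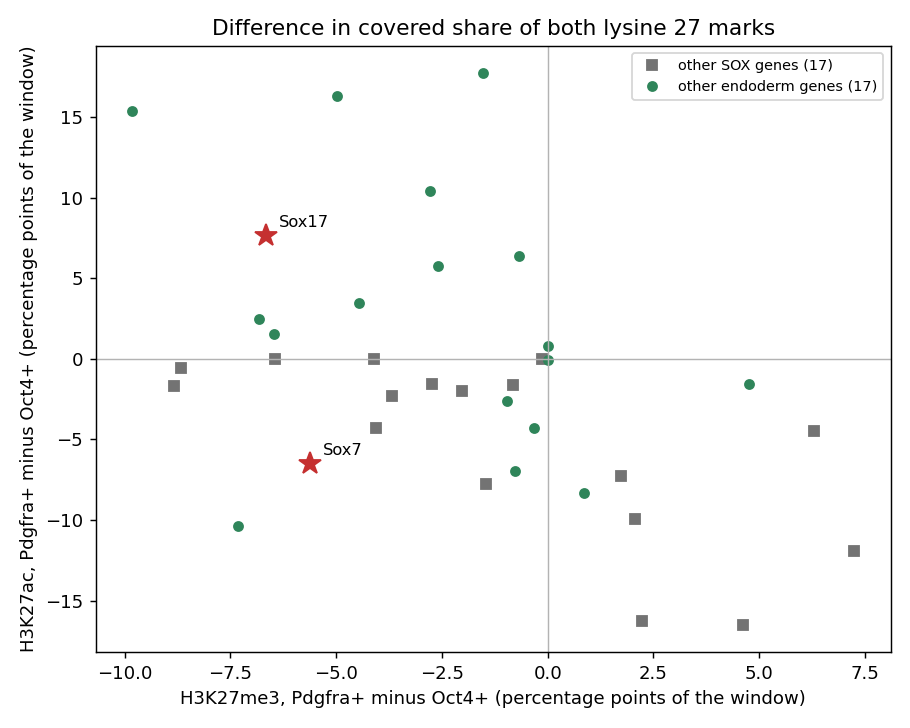
Pdgfra+ minus Oct4+ difference in the covered share of the window, in percentage points, for H3K27me3 (horizontal) and H3K27ac (vertical), with a point per gene from means of 3 libraries. Sox17 lies at -6.66 and 7.62 among endoderm genes, Sox7 at -5.62 and -6.56, and none of the SOX genes lies above 0 for H3K27ac.

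Among the genes whose covered share over the 36 libraries was most like that of Sox17 were Emp2 (Spearman rho 0.778), Gm6993 (0.761), Wdfy1 (0.737) and Pard6b (0.737). For Sox7 they were Otulinl (0.728), Eva1a (0.712), Dennd5a (0.706), Gucy2c (0.673) and Gpat3 (0.673). The rho between Sox17 and Sox7 was 0.523, which placed Sox7 at rank 640 of 21909 genes for Sox17 and Sox17 at rank 198 of 21907 for Sox7. The median rho was 0.553 for the endoderm and -0.105 for the SOX list with Sox17, and 0.464 and -0.0589 with Sox7. These values describe 4 marks and lists of unequal length at once.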

How the data were processed

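CUT&Tag libraries of 4 marks from 3 FACS-sorted populations were used as 36 peak lists. The 3 labelled IgG samples were not analysed here. Per the labels, libraries were made from nEnd cultures of the OCT4-mCherry line. The authors aligned paired-end reads with Bowtie2 and called peaks with SEACR in stringent mode for each library against IgG. The submitters' processing notes also name bcl2fastq 2.19.1, SAMtools 1.12, deepTools, bedtools 2.26.0 and the mm10 build, which is GRCm38. The deposited lists give an interval, its total signal and its maximum signal, in whole numbers of fragment coverage that were not scaled to depth. Whether SEACR normalized to IgG is not given in the sources used here. A place without a peak can still carry the mark, since list lengths differ and depth is unknown.

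Genes came from GENCODE vM21. The bases covered by peaks were counted in the gene body plus 50 kb on each side for each protein-coding gene. For each gene and mark, the sum of squares between populations was tested by exact permutation over 280 divisions of 9 libraries, with a smallest p of 0.00357. P-values were adjusted by Benjamini-Hochberg over all genes with a listed base of the mark. Pairs of populations were compared by exact two-sided permutation with a smallest p of 0.10. The calculation was tested on simulated data and against bedtools 2.31.1. Python 3.11.15, NumPy 2.4.6, pandas 2.3.3, SciPy 1.17.1 and Matplotlib 3.10.9 were used.

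Genes named by rule were the members, genes touching their windows, the 5 most alike genes and, of each list, the 2 highest and 2 lowest in H3K27ac difference. Named regions had a peak in at least 2 of 3 libraries of a population. The values of 1 gene that these rules name are not reported here. Marker genes and other list genes with a shared start site pattern were added after their values were seen. The members, both lists of 17 genes and the motifs were chosen with earlier results of these data known. RefSeq promoter sequences were looked up by symbol and matched 0 of the 2 genes. Alternatives changed the flank, the peaks admitted and the measure, left out each library or blocked on replicate number.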

Additional observations from a re-analysis of the deposited data

How the results depend on the processing

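Of 144 alternative values for the 8 covered lengths (2 genes, 4 marks), 132 kept the direction of the Pdgfra+ minus Oct4+ difference, 5 gave a difference of 0, which has no direction, and none passed an adjusted p of 0.05, the lowest being 0.0726. The 5 were H3K4me1 at both genes with equal numbers of peaks, H3K9me3 at both with a flank of 20 kb and H3K9me3 at Sox17 by number of peaks. Leaving out a DP library or blocking on replicate number cannot change the Pdgfra+ minus Oct4+ difference. Those values kept its direction by construction and say nothing on how firm it is. The 7 that reversed were these. For H3K4me1 at Sox17 a flank of 20 kb gave -0.614 kb. For H3K27ac at Sox7 a flank of 20 kb gave 2.64 kb, equal numbers of peaks 5.07 kb and a common minimum of total signal 4.06 kb, and the percentile among genes, added after the data were seen, gave 19.2 points. The other two were H3K4me1 at both genes without Pdgfra+ replicate 3. The smaller flank, the equal numbers and the common minimum admit fewer bases or peaks by construction, whereas the percentile uses the same peaks. The cause of the reversals was not tested further.

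Leaving out each library in turn gave -0.93 to 3.47 kb for H3K4me1, 6.15 to 10.8 kb for H3K27ac, -8.76 to -4.67 kb for H3K27me3 and 1.43 to 4.16 kb for H3K9me3 at Sox17. At Sox7 it gave -1.19 to 2.77, -13.2 to -1.81, -7.6 to -3.18 and 1.51 to 3.22 kb. H3K27me3 stayed confined to Oct4+ at both genes under the alternatives that changed the peaks admitted. It did so with every flank except that a 100 kb flank at Sox7 took in peaks of 2 DP libraries. A common minimum of total signal of 52608, set by DP replicate 1, left it in 1 Oct4+ library at each gene.

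Replicate numbers were shared by the groups, but the deviations of same-numbered libraries from their group means correlated between -0.243 and 0.159 and exceeded 0.1 in 3 of 36 pairs, so the numbers were not taken to pair libraries. With the replicate number as a block the differences stay as they were by construction (1.75, 8.11, -7.09 and 2.66 kb for H3K4me1, H3K27ac, H3K27me3 and H3K9me3 at Sox17, and 1.45, -7.02, -6.02 and 2.15 kb at Sox7). The exact permutation p, at least 0.0278 in this design, was 0.0833, 0.25, 0.111 and 0.333 at Sox17 and 0.111, 0.556, 0.111 and 0.167 at Sox7, and the block changed no call. Genes below 0.05 before adjustment went from 881 to 516, 2001 to 191, 929 to 201 and 2253 to 390.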
